A study of Homo sapiens with 12 samples.

Results

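Cells in which MESH1 and ATF4 were silenced together (siMESH1+siATF4) were compared with cells given a non-targeting siRNA (siNT). The arrays were chosen by their titles, 3 for siMESH1+siATF4 and 3 for siNT, which makes 6 of the 12 arrays of the series. The other 6 held the single silencings, 3 for siMESH1 and 3 for siATF4, and they enter below only to show where the double silencing lay apart from them. The series asked which RNA changes after loss of MESH1 need ATF4. All cultures were RCC4, an established line from a human clear cell renal carcinoma that lacks the tumour suppressor VHL. Each culture received 40 pmol of siRNA by lipid transfection and was harvested 72 h later. In siMESH1+siATF4 an siRNA against MESH1 was combined with an siRNA pool against ATF4, siMESH1 and siATF4 received those reagents alone, and siNT received the AllStars Negative Control siRNA. How the amount was shared between the reagents in the double silencing is not given in the sources used here. Each target was silenced with 1 reagent in 1 cell line, so the groups describe these reagents in RCC4, and the series calls the 3 replicates of each group biological.

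MESH1, the product of HDDC3, removes a phosphate from cytosolic NADPH and is the animal relative of a bacterial enzyme that ends the stringent response. ATF4 is a basic leucine zipper transcription factor whose mRNA is translated when the initiation factor eIF2 alpha is phosphorylated, and it switches on asparagine synthetase, amino acid transporters and aminoacyl-tRNA synthetases in the integrated stress response. Genes of mitosis share promoter elements: the CCAAT box, bound by the factor NF-Y, and the CHR (cell cycle genes homology region), bound by the MuvB complexes that repress these genes in resting cells and activate them before division. Genes of DNA replication are more often controlled through E2F sites.

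The promoters of 6 genes are shown because the results turn on them and because their letters differ in these elements. Each is the 150 bases before the first listed start of the gene in RefSeq (GRCh38.p14), read 5′ to 3′ on the strand of the gene. RRM2 (chr2:10122589-10122738, plus strand), DLGAP5 (chr14:55191586-55191735, minus strand), KIF20A (chr5:138178962-138179111, plus strand) and CCNB2 (chr15:59104996-59105145, plus strand) fell in the double silencing. CNN1 (chr19:11538701-11538850, plus strand) rose, and ASNS (chr7:97872409-97872558, minus strand) is the classical ATF4 target. Capitals mark the CCAAT box (CCAAT, or ATTGG on the other strand) and the CHR (TTTGAA, or TTCAAA), and in ASNS the C/EBP-ATF composite element.
RRM2: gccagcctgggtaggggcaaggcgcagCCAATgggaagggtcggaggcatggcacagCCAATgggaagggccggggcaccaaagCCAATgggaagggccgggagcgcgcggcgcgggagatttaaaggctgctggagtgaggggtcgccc
DLGAP5: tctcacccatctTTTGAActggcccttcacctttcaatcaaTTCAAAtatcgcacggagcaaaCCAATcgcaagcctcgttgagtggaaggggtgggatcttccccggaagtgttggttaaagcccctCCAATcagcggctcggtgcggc
KIF20A: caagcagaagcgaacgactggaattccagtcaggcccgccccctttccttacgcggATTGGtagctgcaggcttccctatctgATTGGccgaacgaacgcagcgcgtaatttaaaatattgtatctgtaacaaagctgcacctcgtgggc
CCNB2: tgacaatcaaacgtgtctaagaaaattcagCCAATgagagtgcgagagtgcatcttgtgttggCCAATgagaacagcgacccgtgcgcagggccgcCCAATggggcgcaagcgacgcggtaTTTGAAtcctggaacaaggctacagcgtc
CNN1: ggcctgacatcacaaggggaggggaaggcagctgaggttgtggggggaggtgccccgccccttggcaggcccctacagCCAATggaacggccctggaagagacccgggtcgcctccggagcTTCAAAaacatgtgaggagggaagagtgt
ASNS: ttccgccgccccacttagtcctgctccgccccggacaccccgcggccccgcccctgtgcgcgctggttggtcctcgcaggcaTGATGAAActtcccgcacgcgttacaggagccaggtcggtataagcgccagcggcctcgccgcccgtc

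RRM2 held 3 CCAAT boxes in this window, at -123, -93 and -66 from the start, and KIF20A held 2, at -94 and -67. DLGAP5 held 2 CCAAT boxes and 2 matches to the CHR, and CCNB2 held 3 CCAAT boxes with a CHR at -29. CNN1, a gene that rose, carried a CHR at -29 and a CCAAT box at -72, so these letters were not limited to genes that fell. The composite element of ASNS lay at -68. A match is a run of letters and was not tested for binding.

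Every value below is the log2 signal of a gene on an array minus the mean of the siNT arrays, so siNT averages 0, and a difference is siMESH1+siATF4 minus siNT unless another group is named. Where a gene had several probe sets their mean was used, and 11963 genes were tested with limma. A gene was called where the Benjamini-Hochberg adjusted p was under 0.05 and the log2 difference reached 0.5 in size, the minimum used in the study's methods. The table holds differences and no signal levels, so whether a marker was expressed could not be checked. Among the renal carcinoma markers PAX8 was at 0.18, PAX2 at 0.28, KRT8 at 0.46, KRT18 at 0.63 and CA12 at -0.76, of which KRT18 and CA12 were called. The 15 measured markers of leukocytes and endothelium lay between -0.11 and 0.18 with 0 called.

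ATF4 itself lay at -2.27, -2.46 and -2.23 in siMESH1+siATF4, against -0.10, 0.00 and 0.10 in siNT. All 3 double-silenced arrays were far below every siNT array. The fall was 5.01-fold (-2.32 ± 0.07, SE, adjusted p = 1.6e-10), and the gene was read by 1 probe set. HDDC3 had 0 probe sets with its symbol and was not analysed here, so the silencing of MESH1 could not be checked on these arrays.

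The replicates were close to each other, with a median SD over genes of 0.074 in siMESH1+siATF4 and 0.081 in siNT (n = 3 each). Array-level measures moved to unequal extents. The 24 poly-A control probe sets, which read bacterial RNAs added to the sample before labelling, averaged 0.46 ± 0.019 in siMESH1+siATF4 and 0 ± 0.34 in siNT (SD, n = 3 each, exact two-sided permutation p = 0.1, adjusted p = 0.2). For ACTB, the 3′ control probe sets minus the 5′ ones gave -0.30 ± 0.13 and 0 ± 0.063 in the same groups (exact permutation p = 0.1, adjusted p = 0.2), for GAPDH the same subtraction gave -0.022 (exact permutation p = 0.8), and the 18 hybridisation spike-ins lay at 0.068 (exact permutation p = 0.4). With 3 arrays against 3 the smallest p is 0.1, 4 such measures were tested, and the poly-A measure was added after its values were seen. Their part in the results below was not tested.

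In all, 1154 of 11963 genes were called (9.65% of those tested), 526 higher (4.4%) and 628 lower (5.25%). The falls were larger than the rises: 217 genes fell by at least 1 on the log2 scale (1.81%) and 64 rose by as much (0.535%), and at a minimum of 2 there were 60 falls (0.502%) and 9 rises (0.0752%). All 1154 called genes had arrays that did not overlap between the groups, as did 5365 genes in all (44.8%). Lack of overlap with siNT in a called gene below is therefore description and adds no support to the call. The balance of rises and falls rested on the scaling. The 11 housekeeping genes had a mean near -0.22 on each double-silenced array, and centring on it added 0.22 to every difference, which moved the median of all genes to 0.23 from 0.013 and gave 1505 genes higher and 372 lower. The share of calls that were higher was then 80.2%, against 45.6% as deposited. Housekeeping members were themselves uneven, with PGK1 at -0.94, HPRT1 at -0.50 and YWHAZ at -0.47 beside ACTB at 0.02 and GAPDH at -0.16.

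**Figure D1:**
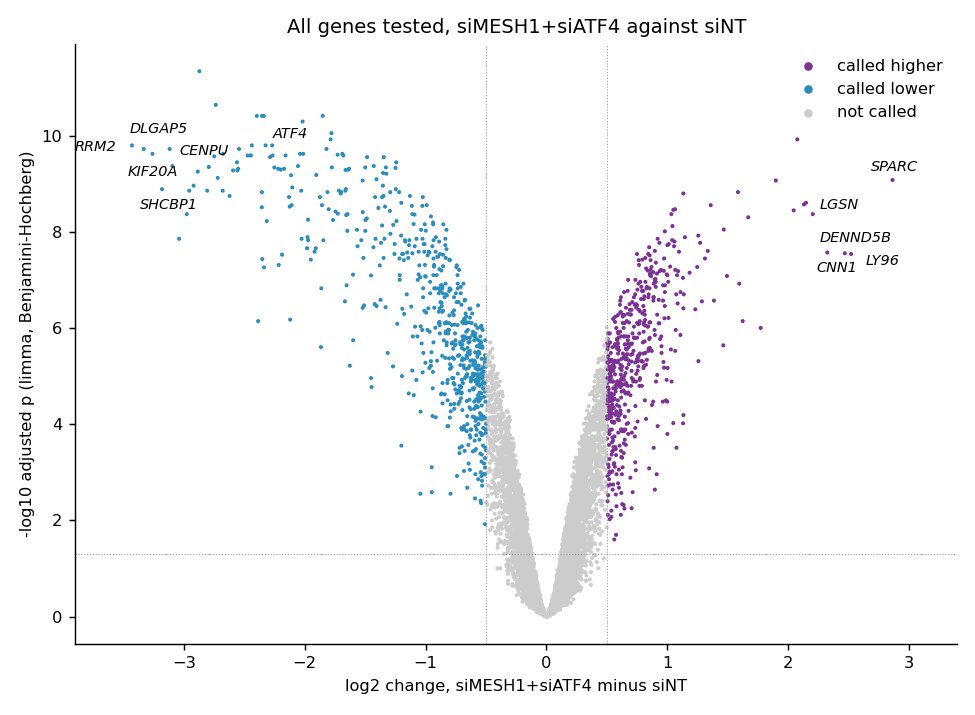
Each point is 1 of the 11963 genes, with the log2 difference siMESH1+siATF4 minus siNT on the horizontal axis and -log10 of limma's adjusted p on the vertical axis (dotted lines, a difference of 0.5 either way and an adjusted p of 0.05). The falls reach -3.43 (RRM2) and the rises 2.86 (SPARC), and 628 genes were called lower and 526 higher.

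Genes of cell division fell as a body. The list of cell cycle and mitosis held 64 measured genes, of which 63 were lower and 0 higher, with a median of -1.97, or -1.74 under housekeeping centring, where 59 were lower. Over all genes tested 5.25% were lower and the median was 0.013. The member not called was BUB3, a spindle checkpoint protein, at -0.48. In bulk RNA a loss of these transcripts from each cell and a smaller share of dividing cells cannot be told apart.

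DLGAP5, a spindle assembly protein, lay at -3.21, -3.52 and -3.27 in siMESH1+siATF4, against 0.07, 0.08 and -0.16 in siNT. KIF20A, a kinesin of cytokinesis, lay at -3.08, -3.49 and -3.20, against 0.13, -0.07 and -0.07. In both genes the second double-silenced replicate was the lowest array and the groups were far apart. DLGAP5 fell 10.1-fold (-3.33 ± 0.10, SE, adjusted p = 1.9e-10) and KIF20A 9.58-fold (-3.26 ± 0.11, adjusted p = 2.4e-10), and their promoters are among those printed above.

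The largest falls of mitotic genes were spread over its successive steps. For entry into mitosis they included cyclin B2 (CCNB2, 6.67-fold, -2.74), cyclin B1 (CCNB1, 5.06-fold, -2.34) and their kinase CDK1 (-2.44). Among kinetochore proteins CENPU (-3.10), SPC25 (-2.92), NDC80 (-1.85) and the checkpoint protein MAD2L1 (-2.55) fell. Spindle genes with large falls were KIF2C (-2.87), a microtubule depolymerase, KIF14 (-3.04), ASPM (-2.75), KIF4A (-2.62) and the hyaluronan receptor HMMR (-2.40), which also sits on spindle poles. CDC20 (-2.68) and PTTG1 (-2.02), activator and inhibitor of the exit from metaphase, fell too. TOP2A, which untangles DNA before segregation, fell 7.87-fold (-2.98 ± 0.14, SE, adjusted p = 4.3e-09). The proliferation marker MKI67 fell by 1.69, with its probe sets between -2.28 and -1.38, and the transcription factor FOXM1 fell by 1.73. The mildest calls were BUB1 and CENPA, both at -0.61 and neither called under housekeeping centring (-0.38 and -0.39), and the 5 probe sets of BUB1 ran from -2.15 to 0.18.

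SHCBP1, a cytokinesis scaffold, lay at -3.05, -3.44 and -3.06 in siMESH1+siATF4, against 0.09, -0.07 and -0.01 in siNT, and PBK, a mitotic kinase, at -2.98, -3.32 and -3.06, against 0.07, 0.02 and -0.09. The rule that picked both genes required groups without overlap, and again the second double-silenced replicate was lowest. KIF2C had the smallest adjusted p among the 15 largest falls (4.6e-12), with arrays of -2.87, -2.93 and -2.81 against 0.01, 0.02 and -0.04.

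The chromosome-compacting condensin subunits fell while cohesin subunits stayed below the fold minimum. Of 17 members of both complexes 7 were lower (41.2%, beside 5.25% over all genes), all of them condensin. They were NCAPG (6.59-fold, -2.72), NCAPH (-1.97), NCAPG2 (-1.87), SMC2 (-1.16), NCAPD2 (-1.11), NCAPD3 (-1.04) and SMC4 (-1.01, with probe sets between -1.43 and -0.52). The condensin subunit NCAPH2 was at -0.21. Cohesin's SMC1A, SMC3, RAD21, STAG1 and STAG2 lay between -0.32 and 0.10. The list median was -0.21, which became 0.016 under housekeeping centring.

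**Figure D2:**
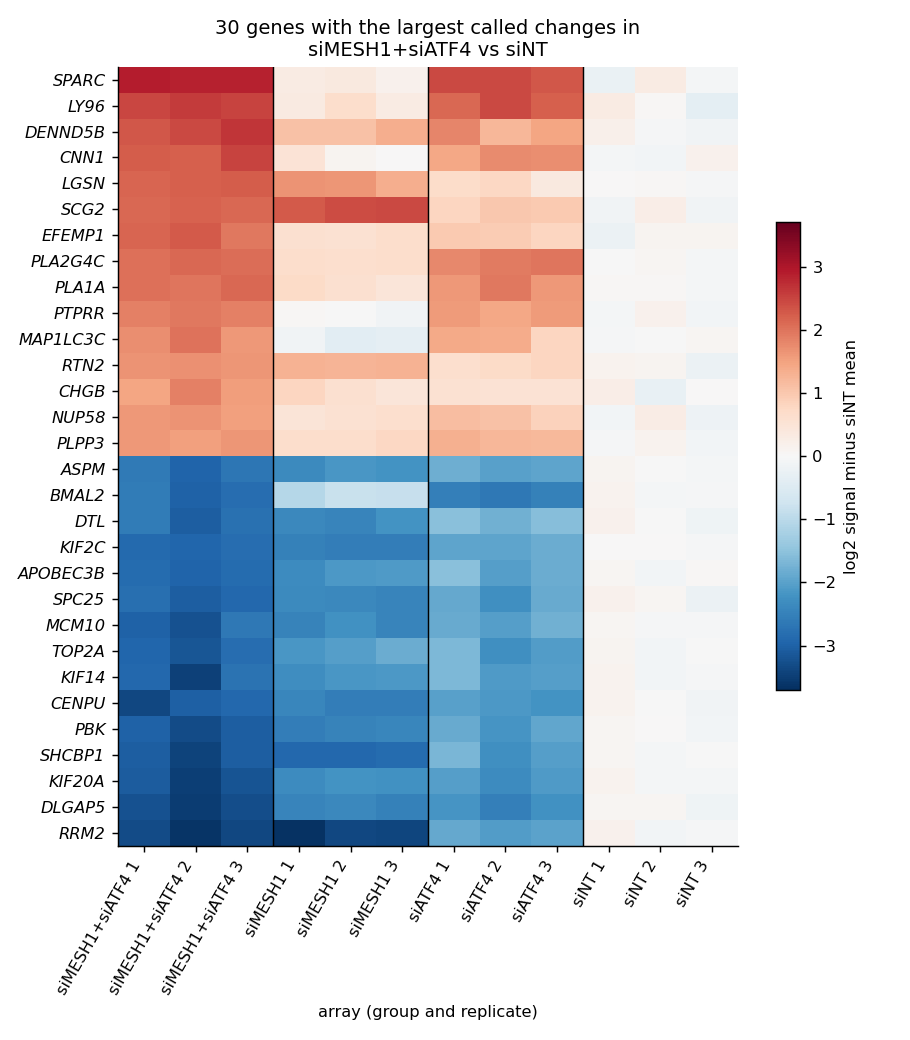
Colour gives the log2 signal minus the siNT mean of 30 genes (rows), the 15 with the highest and the 15 with the lowest called differences between siMESH1+siATF4 and siNT, on each of the 12 arrays (columns, replicates within groups). The 3 siMESH1+siATF4 arrays share a direction in each gene, and 13 of the 15 falls are genes of cell division or DNA synthesis, apart from APOBEC3B and BMAL2.

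DNA replication and the supply of nucleotides came next. Of 61 measured genes 50 were lower (82%, beside 5.25% over all genes) and 0 higher, with a median of -1.02, or -0.80 with 43 lower under housekeeping centring. RRM2, the regulatory subunit of ribonucleotide reductase, lay at -3.30, -3.63 and -3.36 in siMESH1+siATF4, against 0.15, -0.10 and -0.05 in siNT. It was the largest fall of all genes tested, 10.8-fold (-3.43 ± 0.10, SE, adjusted p = 1.6e-10), with 2 probe sets at -3.50 and -3.36. The catalytic subunit RRM1 fell by 1.34, thymidine kinase TK1 by 1.97 and thymidylate synthase TYMS by 0.92.

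Origin licensing and firing genes moved with it. MCM10, which helps to open origins, fell 7.76-fold (-2.96 ± 0.12, SE, adjusted p = 1.4e-09), and the other parts of the active helicase fell as well: GINS2 (5.11-fold, -2.35), CDC45 (4.88-fold, -2.29), and MCM2 to MCM7 between -1.81 (MCM4) and -1.22 (MCM7). The loaders CDC6 (-2.11), ORC1 (-1.91) and ORC6 (-1.86) fell, whereas the remaining origin recognition subunits ORC2, ORC3, ORC4 and ORC5 lay between -0.46 and 0.04 and were not called. The sliding clamp PCNA (-1.52) and the histone chaperone ASF1B (4.11-fold, -2.04) were lower too. Polymerase delta subunits POLD1 (-0.27) and POLD2 (-0.35) and the pyrimidine enzyme CAD (0.04) were below the fold minimum.

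Repair genes fell in part, 14 of 30 (46.7%, beside 5.25% over all genes) with 0 higher and a median of -0.47. Under housekeeping centring 7 were lower and 1 higher. The largest were genes of recombination at broken or stalled forks, RAD51AP1 (6.04-fold, -2.59), the exonuclease EXO1 (5.11-fold, -2.35), FANCI (4.07-fold, -2.03), the helicase BLM (-1.65) and RAD54L (-1.37). APOBEC3B, a cytidine deaminase, fell 7.39-fold (-2.88 ± 0.11, SE, adjusted p = 5.6e-10), and DTL, an adaptor of the ubiquitin ligase that destroys licensing factors, 6.999-fold (-2.81).

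Among the E2F and RB families 3 of 13 were lower (23.1%, beside 5.25% over all genes). They were the atypical repressor E2F8 (-1.42), the pocket protein RBL1 (-1.02) and E2F1 (-0.66). The call of E2F1 was lost under housekeeping centring (-0.44), and its probe sets were at -0.81 and -0.51. Among 17 cyclins, kinases and inhibitors of the phase before DNA synthesis, 5 were lower (29.4%) and 2 higher (11.8%), beside 5.25% and 4.4% over all genes. Cyclin D1 (CCND1), which starts the cycle, fell 4.76-fold (-2.25 ± 0.08, SE, adjusted p = 4.6e-10), and cyclin E2 (CCNE2) 4.30-fold (-2.10), with probe sets at -2.74 and -1.47. The inhibitors CDKN1A (1.82-fold, 0.86) and CDKN1C (0.73) rose. CDK2 was at -0.19, not called, with probe sets from -0.59 to 0.18, and its sign turned under housekeeping centring (0.028).

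CDKN1A lay at 0.82, 0.94 and 0.82 in siMESH1+siATF4, against -0.03, 0.01 and 0.02 in siNT, with no overlap. It is also a p53 target, and of 18 p53 targets 5 were higher (27.8%, beside 4.4% over all genes) and 1 lower, with a median of 0.07. The phosphatase PPM1D (2.02-fold, 1.01), the oxidoreductase TP53I3 (1.96-fold, 0.97), GADD45A (0.58) and the repair factor XPC (0.55) were the other rises, PMAIP1, which encodes the death protein NOXA, fell (-1.03), and MDM2 was at 0.09. Of 40 histone genes 2 were higher (5%) and 3 lower (7.5%), near the 4.4% and 5.25% over all genes. The H2B gene H2BC12 rose 2.56-fold (1.36 ± 0.06, SE, adjusted p = 2.8e-09), H2AC6 was just past the fold minimum (0.51), and the variants H2AZ1 (-0.86), H2AZ2 (-0.83) and H2AX (-0.52) fell. H2AX lost its call under housekeeping centring (-0.29), with the median of its probe sets (-0.48) and without the second double-silenced replicate (-0.47).

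The promoter letters differed with the size of the fall. Of 11963 genes, 9562 had a promoter in the table, and the 250 bases before the first listed start were searched on both strands. The CHR (TTTGAA) was found in 9.73% of all these promoters, in 14.4% of the 521 genes called lower and in 8.13% of the 418 called higher. Among genes that fell by 0.5 to 1 it was found in 9.33% (n = 343), at 1 to 2 in 16.4% (n = 128) and at 2 or more in 44% (22 of 50). The CCAAT box stood in 35.6% of all promoters and in 76% (38 of 50) of those with a fall of 2 or more, and both elements together in 3.92% and 38% (19 of 50). A CCAAT box also stood in 54.2% of the 48 promoters of genes that rose by 1 or more, where the CHR stood in 12.5%. With genes of 1 listed start alone, a choice made after the data were seen, the CHR share at 2 or more was 50% (21 of 42). The E2F letters (TTTNNCGC) were found in 8.44% of all, 14.8% of lower and 7.66% of higher genes. The composite element (TGATGNAA) was in 1.98% of all, 2.5% of lower and 2.39% of higher genes. It was in 0% of the 50 promoters with a fall of 2 or more and in 6.25% of the 48 with a rise of 1 or more. The AP-1 site (TGANTCA) was in 4.67% of all, 3.45% of lower and 4.07% of higher genes. The motifs do not contain each other, and these shares are descriptions without a test.

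Known ATF4 targets fell in part. Of 22 genes of amino acid synthesis and transport, 7 were lower (31.8%, beside 5.25% over all genes) and 0 higher, and the median was -0.22. Housekeeping centring put the median at 0.0014, with 3 lower and 1 higher. ASNS, which makes asparagine, lay at -1.25, -1.22 and -1.11 in siMESH1+siATF4, against 0.08, 0.08 and -0.17 in siNT, without overlap. It fell 2.29-fold (-1.20 ± 0.07, SE, adjusted p = 2.9e-08). MTHFD2, the mitochondrial folate dehydrogenase, was even across replicates at -1.4145, -1.443 and -1.431, against 0.01, 0.04 and -0.05, and fell 2.69-fold (-1.43). In siMESH1, where ATF4 was at -0.03, MTHFD2 already averaged -1.25, and in siATF4 it averaged -0.88. ASNS averaged -0.35 in siMESH1 and -1.19 in siATF4.

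The glutamine transporter SLC38A1 (2.04-fold, -1.03), the arginine transporter SLC7A1 (-0.64, or -0.42 under housekeeping centring), the neutral amino acid transporter SLC1A4 (-0.63, or -0.41), the transaminase GOT1 (-0.55, or -0.32) and the serine pathway enzyme PSAT1 (-0.53, or -0.30) completed the falls. The last 4 of these were not called under that centring. PHGDH, the first enzyme of serine synthesis, was at 0.01 and the cystine carrier SLC7A11 at -0.25. CTH, which splits cystathionine to cysteine, had 3 arrays at 0.35 and was not called, but passed the fold minimum under housekeeping centring (0.57). Among 16 cytosolic aminoacyl-tRNA synthetases 4 were lower (25%, beside 5.25% over all genes) and 0 higher (median -0.28, or -0.06 under housekeeping centring). The falls were IARS1 (1.85-fold, -0.89), YARS1 (-0.83), TARS1 (-0.70) and AARS1 (-0.56). The last 2 lost their calls under that centring (-0.48 and -0.34).

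Of 20 integrated stress response regulators 3 were higher and 3 lower (15% each, beside 4.4% and 5.25% over all genes), with a median of 0.07. The even split rested on the scaling, since housekeeping centring gave 8 higher and 2 lower (median 0.29). The tRNA exporter XPOT (-0.79), the stress protein NUPR1 (-0.81) and the pseudokinase TRIB3 (-0.53, or -0.31 and not called under housekeeping centring) fell. CEBPB, a transcription factor that pairs with ATF4, rose 1.89-fold (0.92 ± 0.05, SE, adjusted p = 1.4e-08) from arrays at 0.90, 0.90 and 0.96, against -0.05, 0.07 and -0.02 in siNT. The hormone STC2 rose 1.79-fold (0.84). ATF3 lay at 0.63, 0.61 and 0.47, against 0.01, 0.13 and -0.14, with no overlap, but its call depended on the siNT replicate 3, without which the difference was 0.498. DDIT3, which encodes CHOP, was at 0.32 and became a call under housekeeping centring (0.54).

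Among 23 genes that ATF6 or IRE1 control in the unfolded protein response 0 were called, with a median of -0.02 (2 higher under housekeeping centring and 2 lower under array median centring). XBP1 was at -0.41, HERPUD1 at 0.25 and DNAJB9 at 0.17. Of 23 sterol and fatty acid genes 2 fell (8.7%, beside 5.25% over all genes). They were ACLY, the source of cytosolic acetyl-CoA (2.01-fold, -1.01, probe sets between -1.27 and -0.75), and INSIG1, the brake on sterol sensing (-0.75). Among 37 genes of hypoxia and glycolysis 5 were lower (13.5%) and 1 higher (2.7%), beside 5.25% and 4.4% over all genes. The glycolytic enzymes PGK1 (-0.94) and HK2 (-0.73), the carbonic anhydrase CA12 (-0.76), NDRG1 (-0.67) and INSIG2 (-0.59) fell, the glucose transporter SLC2A3 rose (0.65), and VEGFA was at -0.28. NDRG1 and INSIG2 lost their calls under housekeeping centring (-0.45 and -0.37), which gave 3 higher and 3 lower.

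MESH1 is known for its effect on NADPH and on ferroptosis. NADK, the kinase that makes NADP, was at -0.15, and under housekeeping centring at 0.07. Among 26 NRF2 targets and NADPH-supplying genes 1 was higher and 1 lower (3.85% each, near the 4.4% and 5.25% over all genes), or 4 and 0 under housekeeping centring. EPHX1, an epoxide hydrolase, rose (1.82-fold, 0.87), and the export pump ABCC2 fell (-0.55, lost under housekeeping centring at -0.33 and without the second double-silenced replicate at -0.48). Of 18 ferroptosis and iron genes 3 rose (16.7%, beside 4.4% over all genes) and 0 fell, with the lowest member at -0.496. Under housekeeping centring 5 were higher and 0 lower, and under array median centring 2 were higher and 1 lower. Without probe sets that may cross-hybridise 1 of 11 was higher and 0 lower. The 3 rises were SAT1 (1.63-fold, 0.70), which acetylates polyamines, the ferritin light chain FTL (1.56-fold, 0.64), and GPX4, the lipid peroxide reductase, at 0.51. GPX4 was close to the fold minimum and missed it with array median centring (0.491) and without double-silenced replicate 1 (0.499) or siNT replicate 3 (0.480). The lipid ligase ACSL4 was at 0.18 and the transferrin receptor TFRC at -0.34.

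**Figure D3:**
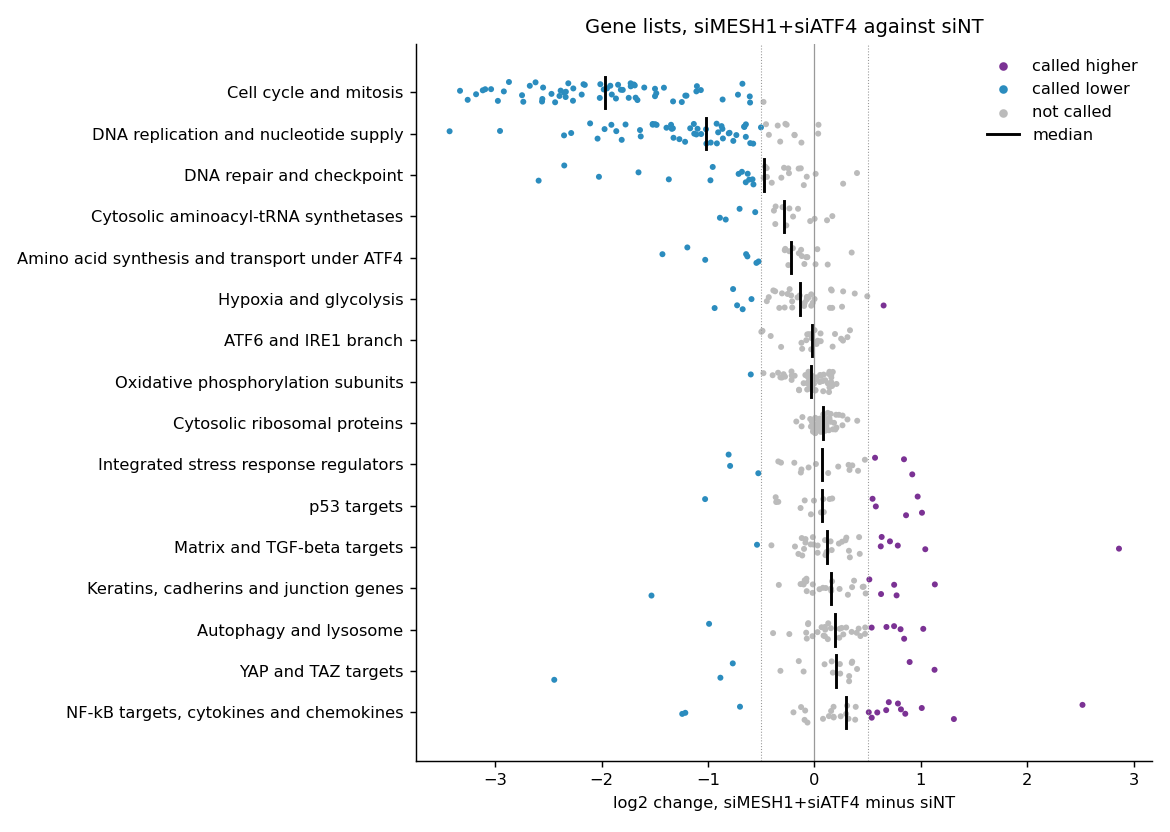
Points are genes and black bars medians of 16 gene lists (vertical axis), with the log2 difference siMESH1+siATF4 minus siNT on the horizontal axis and dotted lines at 0.5 either way. The cell cycle list has a median of -1.97 with 63 of 64 genes called lower, the amino acid list 7 of 22 lower, and the NF-kB list 11 of 31 higher.

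The largest rises were SPARC, LY96, DENND5B and CNN1. SPARC, which binds collagen and calcium, lay at 2.89, 2.86 and 2.84 in siMESH1+siATF4, against -0.25, 0.31 and -0.06 in siNT. LY96, the partner that lets TLR4 bind lipopolysaccharide, lay at 2.46, 2.60 and 2.497, against 0.31, 0.04 and -0.35. In both genes the spread lay mainly within siNT and the groups were far apart. SPARC rose 7.28-fold (2.86 ± 0.11, SE, adjusted p = 8.4e-10, 2 probe sets at 2.42 and 3.31) and LY96 5.74-fold (2.52 ± 0.145, adjusted p = 2.9e-08).

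CNN1, the actin-binding calponin of smooth muscle, lay at 2.25, 2.21 and 2.51, against -0.06, -0.09 and 0.16 in siNT, and rose 5.00-fold (2.32 ± 0.13, SE, adjusted p = 2.7e-08). Of 22 smooth muscle and contractile genes 4 were higher (18.2%) and 2 lower (9.09%), beside 4.4% and 5.25% over all genes. Under housekeeping centring 8 were higher and 1 lower. CNN2 (1.75-fold, 0.81), the myosin light chain MYL9 (0.80) and tropomyosin TPM4 (1.69-fold, 0.75) rose beside it, while TPM1 (-0.90) and smoothelin SMTN (-0.71, or -0.49 and not called under housekeeping centring) fell, so tropomyosins moved in both directions.

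**Figure D4:**
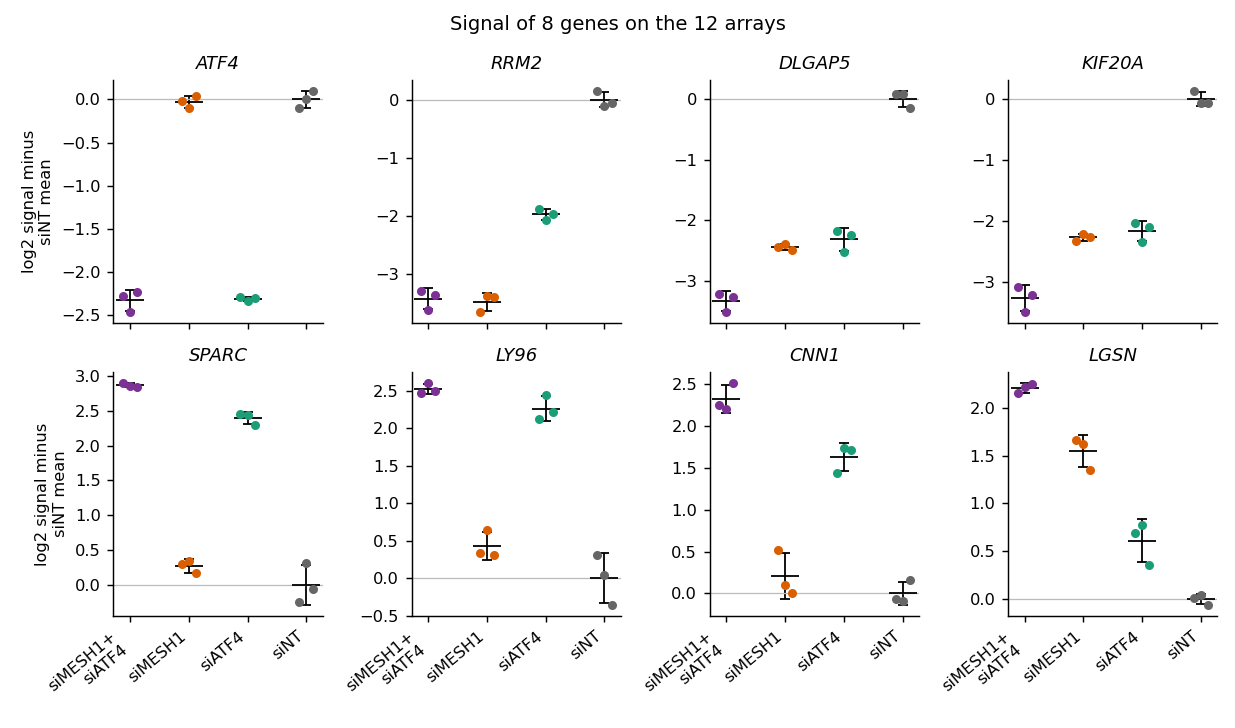
Points are arrays and bars the mean and SD of 3 arrays for 8 genes, plotted as log2 differences from the siNT mean (vertical axis) in siMESH1+siATF4, siMESH1, siATF4 and siNT (horizontal axis, left to right). ATF4 lies near -2.32 in siMESH1+siATF4, and the siMESH1+siATF4 arrays of SPARC, LY96, CNN1 and LGSN lie above 2 while those of RRM2, DLGAP5 and KIF20A lie below -3.

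In the matrix list 6 of 34 were higher and 1 lower (17.6% and 2.94%, beside 4.4% and 5.25% over all genes; median 0.11). Under housekeeping centring 12 were higher and 0 lower. Laminin chains LAMC1 (1.64-fold, 0.71) and LAMA5 (0.78), collagen COL5A1 (0.63) and fibrillin FBN1 (0.62) rose and the proteoglycan VCAN fell (-0.54, or -0.32 and not called under that centring). Fibronectin FN1 rose 2.06-fold (1.04), but its 6 probe sets ran from 0.35 to 1.32, and without those that may cross-hybridise it was at 0.35 (adjusted p = 0.067). Among 22 metalloproteinases and inhibitors 5 were higher (22.7%) and 1 lower (4.55%), beside 4.4% and 5.25% over all genes. Under housekeeping centring 7 were higher and 1 lower. The rises were led by MMP7 (0.96), MMP24 (1.63-fold, 0.71) and the inhibitor TIMP2 (0.69), with the probe sets of MMP19 (0.57) at 0.07 and 1.07. Collagenase MMP1 fell 6.41-fold (-2.68 ± 0.11, SE, adjusted p = 1.4e-09) from arrays at -2.78, -2.68 and -2.58, against 0.04, -0.07 and 0.03.

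EFEMP1, fibulin-3 of the matrix, lay at 2.17, 2.27 and 1.95, against -0.20, 0.11 and 0.10 in siNT, without overlap. It rose 4.38-fold (2.13 ± 0.09, SE, adjusted p = 2.7e-09), with probe sets at 1.52 and 2.74. SCG2 and CHGB, granins of secretory granules that were picked by the size of their change, rose too. SCG2 lay at 2.13, 2.19 and 2.12, against -0.13, 0.25 and -0.12 (4.43-fold), and CHGB at 1.46, 1.88 and 1.54, against 0.24, -0.26 and 0.02 (3.08-fold). LGSN, a lens protein of the glutamine synthetase family, rose 4.61-fold (2.20 ± 0.10, adjusted p = 4.3e-09), and DENND5B, an exchange factor for Rab GTPases, 5.54-fold (2.47 ± 0.14, adjusted p = 2.8e-08).

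The lipid enzymes PLA2G4C (4.21-fold, 2.08), PLA1A (4.13-fold, 2.04) and PLPP3 (3.00-fold, 1.58) were among the 15 largest rises. Other phospholipases such as PLA2G4A (-0.06) and PLA2G6 (0.20) were not called, and PTGS2, the inducible cyclooxygenase, fell (-0.70, or -0.48 under housekeeping centring). The phosphatase PTPRR (3.72-fold, 1.90), RTN2 (3.18-fold, 1.67), an endoplasmic reticulum shaping protein, and the nucleoporin NUP58 (3.02-fold, 1.59) completed the group with MAP1LC3C (3.41-fold, 1.77), an autophagosome protein.

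NF-kB targets, cytokines and chemokines were more often higher than lower, 11 and 3 of 31 (35.5% and 9.68%, beside 4.4% and 5.25% over all genes), with a median of 0.30. Under housekeeping centring 16 were higher and 2 lower, and without probe sets that may cross-hybridise 6 and 1 of 21. The neutrophil chemokine CXCL6 lay at 1.22, 1.32 and 1.40 in siMESH1+siATF4, against 0.05, -0.14 and 0.10 in siNT, and rose 2.48-fold (1.31 ± 0.08, SE, adjusted p = 3.6e-08). CXCL2 (0.85), CXCL1 (0.78), CXCL5 (0.59) and CXCL8 (0.54) rose with it, as did IL6 (0.81) and the feedback inhibitors TNFAIP3 (1.01) and NFKBIA (0.70). The adhesion molecule VCAM1 fell 2.37-fold (-1.24 ± 0.04, adjusted p = 3.6e-10) and the hyaluronan-binding TNFAIP6 2.32-fold (-1.21), and the third fall was PTGS2.

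Of 36 interferon genes 4 were higher (11.1%, beside 4.4% over all genes) and 1 lower (2.78%, beside 5.25%), or 8 and 0 under housekeeping centring. The guanylate-binding protein GBP1 (2.37-fold, 1.25), IFI27 (1.08) and IFIT2 (0.74) rose and the immunoproteasome subunit PSMB8 fell (-0.59, or -0.37 under housekeeping centring), while IRF7 (0.503) missed the minimum under array median centring (0.488) and without each of 3 arrays (0.443 to 0.498). Of 16 complement genes 3 were higher (18.8%, beside 4.4% over all genes) and 0 lower, or 7 and 0 under housekeeping centring. The 3 were the proteases C1R (0.60) and C1S (0.53, or 0.489 without siNT replicate 3) and the receptor C3AR1 (0.64).

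Of 29 keratins, cadherins and junction genes 5 were higher (17.2%) and 1 lower (3.45%), beside 4.4% and 5.25% over all genes, and under housekeeping centring 11 were higher and 1 lower. Keratins KRT19 (2.19-fold, 1.13) and KRT18 (0.63), desmocollin DSC2 (0.75), and claudins CLDN4 (0.77) and CLDN1 (0.52) rose, and the desmosome protein PERP fell 2.89-fold (-1.53 ± 0.08, SE, adjusted p = 1.5e-08). PERP lay at -1.61, -1.60 and -1.39, against 0.01, -0.09 and 0.09 in siNT. Of 23 integrin genes 2 were higher (8.7%) and 1 lower (4.35%), beside 4.4% and 5.25% over all genes. The fibronectin receptor chain ITGA5 (0.75) and the collagen receptor chain ITGA1 (0.90) rose and ITGAE fell (-0.93). Of 18 genes of the YAP and TAZ pathway 2 were higher (11.1%) and 3 lower (16.7%), beside 4.4% and 5.25% over all genes. Under housekeeping centring 7 were higher and 3 lower. CCN2 (2.19-fold, 1.13) and the nucleotidase NT5E (0.90) rose, while tissue factor F3 (5.45-fold, -2.45), CRIM1 (-0.77) and TAZ itself (WWTR1, -0.88) fell.

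Lysosome genes rose in part. Of 34 autophagy and lysosome genes 6 were higher (17.6%) and 1 lower (2.94%), beside 4.4% and 5.25% over all genes. The median was 0.19, and 13 were higher under housekeeping centring. The 6 rises were the sialidase NEU1 (2.03-fold, 1.02), ATG14 (0.84), the membrane protein LAMP1 (0.81), the proteases CTSB (0.75) and CTSA (0.68), and the receptor SQSTM1 (0.54). GABARAPL2, a lipidated autophagosome protein, fell 1.99-fold (-0.99). Of 30 targets and feedback genes of ERK 5 were higher (16.7%) and 3 lower (10%), beside 4.4% and 5.25% over all genes. The immediate early factor EGR1 fell 4.08-fold (-2.03 ± 0.08, SE, adjusted p = 1.4e-09, probe sets at -2.61 and -1.45) and the ERK phosphatase DUSP6 2.004-fold (-1.003), whereas SPRY2 (0.80), IER3 (0.76) and HBEGF (0.67) rose.

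Of 18 clock genes 2 were higher (11.1%) and 3 lower (16.7%), beside 4.4% and 5.25% over all genes. BMAL2, a partner of CLOCK, lay at -2.58, -2.98 and -2.82 in siMESH1+siATF4, against 0.12, -0.09 and -0.03 in siNT, and fell 6.94-fold (-2.79 ± 0.10, SE, adjusted p = 4.5e-10). Its paralogue BMAL1 was at 0.34 and CLOCK at 0.04. CRY1 (-0.88) and PER3 (-0.80) were lower too. EPHA7, an ephrin receptor, fell 4.35-fold (-2.12), with arrays at -2.15, -2.42 and -1.79.

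Large housekeeping machines were near the background, which was 4.4% higher and 5.25% lower over all genes. The 51 cytosolic ribosomal proteins had 0 calls and a median of 0.08, beside 0.013 over all genes, and lay between -0.17 and 0.40. Of 56 subunits of oxidative phosphorylation 1 fell (NDUFS1, -0.60, or -0.38 under housekeeping centring), and of 47 mitochondrial ribosomal proteins 3 fell (MRPL13, -0.83, MRPL48, -0.62, and MRPL42, -0.52), of which MRPL13 kept its call under housekeeping centring. Of 31 proteasome subunits PSMA5 (-0.89) and PSMB8 fell. The mitochondrial chaperone HSPD1 (2.65-fold, -1.407) and cytosolic HSP90AB1 (-0.72, or -0.497 under housekeeping centring) fell and the small heat shock protein CRYAB rose (1.85-fold, 0.89) among 26 chaperones. Of 32 cilium genes and 16 tubulins, TUBB4B (-0.86), on both lists, and TUBA4A (-0.61, or -0.39 under housekeeping centring) fell, and of 18 renal identity genes CA12 alone.

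The double silencing was also set against each single silencing, in comparisons that share the siMESH1+siATF4 arrays. Against siMESH1, 730 genes were called (6.1%), 409 higher (3.42%) and 321 lower (2.68%). Housekeeping centring turned this balance round, with 262 higher and 549 lower. ATF4 differed by -2.30 (adjusted p = 2.7e-09) and was followed by AKR1B10 (-1.98), an aldo-keto reductase, BMAL2 (-1.88), PERP (-1.85) and EPHA7 (-1.61). SPARC (2.59), CNN1 (2.12), LY96 (2.09), MAP1LC3C (2.05) and CXCL6 (2.04) were the largest differences upward. Of the NF-kB list 11 genes were higher in siMESH1+siATF4 than in siMESH1, and 2 lower. RRM2 differed by 0.05 (adjusted p = 0.76).

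Against siATF4 fewer genes differed, 195 in all (1.63%), 42 higher (0.351%) and 153 lower (1.28%). ATF4 differed by -0.02 (adjusted p = 0.93). The largest differences downward were MMP1 (-1.75), CCND1 (-1.63), RRM2 (-1.45), SIGLEC15 (-1.44), a lectin of osteoclasts, and the neurofilament NEFM (-1.32). Those upward were LGSN (1.59), SCG2 (1.24), EFEMP1 (1.24), CHGB (1.08) and DENND5B (0.97). In the cell cycle list 37 of 64 genes were lower in siMESH1+siATF4 than in siATF4 and 19 were lower than in siMESH1, and 0 were higher in either comparison. Of the NF-kB list 0 of 31 differed from siATF4 in either direction.

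At 43 genes (0.359%) siMESH1+siATF4 was called the same way against siNT, siMESH1 and siATF4, 11 higher (0.092%) and 32 lower (0.267%). Without the second double-silenced replicate 20 of the lower kind were counted. Ranked by the smallest of the 3 differences, EFEMP1, CHGB, DENND5B, CNN1 and LGSN led the higher genes. EFEMP1 averaged 2.13 in siMESH1+siATF4, 0.60 in siMESH1 and 0.89 in siATF4, and CHGB averaged 1.62, 0.61 and 0.54 in these groups. Neither gene had a double-silenced array that overlapped the other groups. CNN1 was at 2.32 in siMESH1+siATF4, 0.21 in siMESH1 and 1.63 in siATF4, and LGSN at 2.20, 1.54 and 0.61.

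KIF20A, TOP2A, DLGAP5, KIF14 and CCNB2 led the lower genes. KIF20A averaged -3.26 in siMESH1+siATF4, -2.27 in siMESH1 and -2.15 in siATF4, and the double-silenced arrays differed from siMESH1 by -0.995 (adjusted p = 1.5e-05) and from siATF4 by -1.10 (adjusted p = 3.4e-05). CCNB2 averaged -2.74, -1.91 and -1.82 in these groups, with double-silenced arrays at -2.66, -2.83 and -2.72 and no array of the other groups below -1.94. Tissue factor F3 averaged -2.45, -1.62 and -1.27. RAD51AP1 averaged -2.59, -1.79 and -1.88. These genes thus lay lower with both siRNAs than with either, by amounts smaller than the fall that each single silencing already showed.

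**Figure D5:**
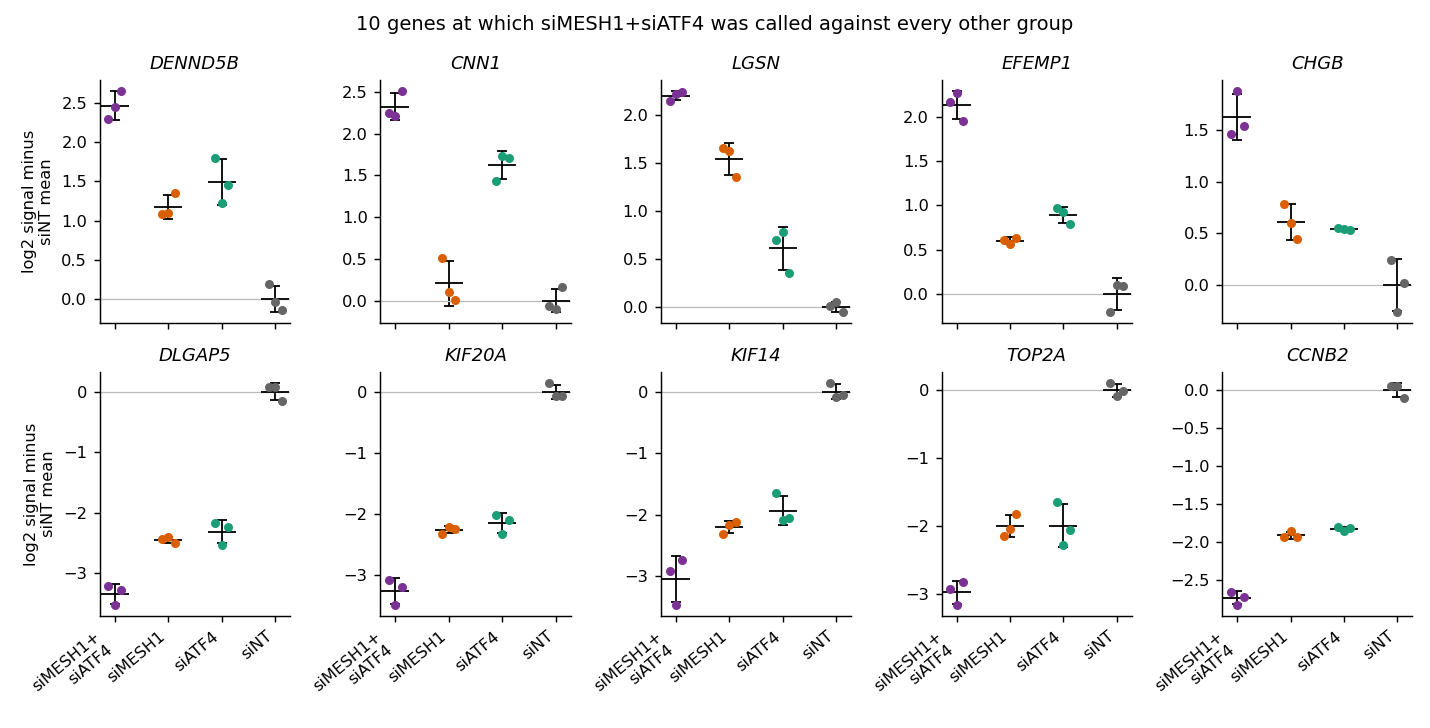
Points are arrays and bars their mean and SD (n = 3) for 10 genes called against every other group, plotted as log2 differences from the siNT mean (vertical axis) in siMESH1+siATF4, siMESH1, siATF4 and siNT (horizontal axis, left to right). The upper panels, such as EFEMP1 at 2.13, lie above, and the lower panels, such as KIF20A at -3.26, lie below the arrays of the other 3 groups.

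The departure of the double silencing from the sum of the single silencings was tested as an interaction on the log2 scale, and 516 genes were called (4.31%), 414 above the sum (3.46%) and 102 below it (0.853%). Of the 64 cell cycle genes 61 lay above the sum, with a median departure of 1.08, so that their falls in siMESH1+siATF4 were smaller than the added falls of the single silencings. ATAD2, a chromatin ATPase, was at -2.20 in siMESH1+siATF4, -2.77 in siMESH1 and -1.68 in siATF4, a departure of 2.25. RRM2 departed by 2.03, and AKR1B10 by -1.63, at -0.25 in siMESH1+siATF4, 1.73 in siMESH1 and -0.35 in siATF4. Housekeeping centring reversed the balance of the departures, with 196 above and 1261 below the sum.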

How the data were processed

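RNA of 12 RCC4 cultures was hybridised to Affymetrix human arrays. Per the study's methods, the authors computed the deposited log2 signals with RMA in Affymetrix Expression Console (versions not given in the sources used here) and set them relative to the siNT mean of each probe set, which lay within 1.2e-04 of 0. Signal levels and low-signal filters were therefore not used here. Of 22277 probe sets, 19064 had exactly 1 gene symbol in the platform annotation (19052 matched by Entrez identifier), 1043 had several, 2108 had none and 62 were controls. Means per gene gave 11963 genes, 4310 from several probe sets. HDDC3 was not analysed here, and 0 columns lacked a sample.

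Differences were tested in R 4.3.3 with limma 3.58.1 (lmFit, then eBayes), fitting all 12 arrays at once with 4 group means and without a block (8 residual and 4.32 prior degrees of freedom), and the procedure was tested on simulated data. P-values were Benjamini-Hochberg adjusted over all genes. Errors are SE of the fit or SD of 3 arrays, and 3 arrays per group limit the precision. Array-level measures were tested by exact permutation in scipy 1.17.1. Tables were prepared with Python 3.11.15, pandas 2.3.3 and numpy 2.4.6, and figures with matplotlib 3.10.9.

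The comparisons, the 38 gene lists, the alternatives and the naming rule were chosen with earlier results of these data known. The rule names ATF4, HDDC3, 13 genes of the study, the 15 largest called rises and falls whose arrays did not overlap, the 5 largest in each other comparison, and up to 4 members per list with the smallest adjusted p. Other members named were chosen after their values were seen.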

Additional observations from a re-analysis of the deposited data

Results flagged for a closer look

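At 62 of the 153 genes named by the rule above the effect of adding siMESH1 differed between cells with and without siATF4. The difference was tested as the interaction in limma (adjusted p under 0.05 and a departure of at least 0.5 on the log2 scale). Over all genes tested 516 of 11963 were called (4.31%). The rule picks some genes by the size of this departure and others by their changes, so the named genes cannot be compared with that share. The values here are departures of siMESH1+siATF4 from the sum of the single silencings. Whether the range of the signal, with a lowest value of -3.77, limited the departures of genes with large falls was not tested. Among mitotic genes the departures were NDC80 (1.90), SHCBP1 (1.71), KIF2C (1.57), CENPU (1.53), SPC25 (1.48), DLGAP5 (1.42), ASPM (1.412), PBK (1.36), KIF20A (1.16), CCNB1 (1.15), HMMR (1.14), KIF14 (1.08), TOP2A (1.03) and CCNB2 (1.00). Among genes of replication, repair and chromosome structure they were ATAD2 (2.25), RRM2 (2.03), NCAPG (1.71), E2F8 (1.57), CDC45 (1.54), EXO1 (1.38), MCM10 (1.32), CCNE2 (1.24), CDKN3 (1.21), GINS2 (1.20), RAD54L (1.19), DTL (1.17), ASF1B (1.13), APOBEC3B (1.10), RAD51AP1 (1.08), FANCI (1.06), NCAPH (1.05), NCAPG2 (1.03), SMC4 (0.93) and H2AZ1 (0.81). Other genes above the sum were ITGAE (1.11), EGR1 (1.00), CXCL6 (0.96), CA12 (0.89), MAP1LC3C (0.86), TUBB4B (0.79), ACLY (0.79), PTGS2 (0.79), MTHFD2 (0.70), TUBA4A (0.69), CRY1 (0.68), BMAL2 (0.67), MMP1 (0.64), EFEMP1 (0.64), KRT19 (0.53), HLF (0.52) and PSMA5 (0.51). Genes below the sum were AKR1B10 (-1.63), SCG2 (-1.14), KCNJ13 (-1.05), TP53I3 (-1.04), CLEC4E (-0.96), ITGA1 (-0.80), SPRY2 (-0.66), H2BC12 (-0.65), CDKN1A (-0.57), PPM1D (-0.51) and CCN2 (-0.51). Housekeeping centring lowered every departure by 0.26. Of the 51 genes above the sum 42 were then still called, and the other 9 lay between 0.25 and 0.44 (MTHFD2, TUBA4A, CRY1, BMAL2, MMP1, EFEMP1, KRT19, HLF and PSMA5), while all 11 below the sum were still called.

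Probe sets outside the gene table also moved in siMESH1+siATF4 against siNT. Of 2108 probe sets without a gene symbol 106 were called (5.03%), 47 higher and 59 lower, between -2.23 and 1.16. Of 1043 with several symbols 78 were called (7.48%), 46 higher and 32 lower. Of the 62 control probe sets 8 were called higher and 0 lower, all 8 of them poly-A controls at 0.54 to 0.68 (adjusted p from 0.0055 to 0.028). The siNT arrays of these 24 poly-A probe sets averaged between -0.38 and 0.25, the siMESH1+siATF4 arrays between 0.45 and 0.48.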

How the results depend on the processing

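The counts of siMESH1+siATF4 against siNT, 526 higher and 628 lower, stayed within 1.5 times under array median centring (487 and 650), the median of probe sets (531 and 636), robust eBayes (526 and 628), a fit of the 6 arrays alone (525 and 628) and the methods' t-test, with its fold and p (522 and 628) or after Benjamini-Hochberg (494 and 608), and without probe sets that may cross-hybridise (376 and 432 of 8369 genes). Counts below are given in the order siNT, siMESH1, siATF4, interaction and beyond all 3 other groups. Housekeeping centring gave 1505, 262, 91, 196 and 16 higher and 372, 549, 113, 1261 and 37 lower. With no fold minimum there were 2336, 1870, 737, 938 and 232 higher and 1918, 1478, 666, 486 and 167 lower, and at a minimum of 1 there were 64, 55, 4, 98 and 2 higher and 217, 38, 17, 4 and 0 lower. Probe sets tested singly gave 950, 716, 99, 662 and 27 higher and 1043, 560, 258, 193 and 43 lower, over 19064 units. Leaving out an array gave 465 to 577, 403 to 438, 42 to 55, 372 to 460 and 9 to 16 higher and 600 to 669, 301 to 348, 143 to 161, 93 to 121 and 20 to 33 lower. The 20 came without siMESH1+siATF4 replicate 2.

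Same-numbered arrays of siMESH1+siATF4 and siNT showed no strong shared deviation from their group means (r = 0.037, -0.171 and -0.0703). The labels do not say whether same-numbered cultures were prepared together, and these correlations cannot decide it. With the replicate block the counts were 526 and 628 and all 1154 genes remained called, and the interaction had 103 lower in place of 102. Under housekeeping centring CDK2 went to 0.028 and NADK to 0.070, both opposite in sign to the deposited scale (-0.19 and -0.15). Of all other combinations of named gene and setting 3789 kept their side of the threshold, 101 lost the call and 16 gained it. These counts include the settings with a higher fold minimum or with none. There a call changed because the threshold moved, while the difference stayed the same. ATF3 (0.57) lost its call in this way under the higher minimum, and DDIT3 (0.32) gained a call with no minimum. For the remaining changes, beyond the housekeeping shift of 0.22, the cause was not tested. A filter on dim probe sets was not run, since the table holds no levels. Of the genes called here, 898 kept their call and direction under housekeeping centring.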

Other observations

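Some genes that the report left without their sensitivity to the processing gave these values in siMESH1+siATF4 against siNT. KCNJ13, an inward rectifier potassium channel, was at 0.46 with probe sets at 0.09 and 0.84, and passed the fold minimum once cross-hybridising probe sets were dropped (0.84, adjusted p = 0.002). CLEC4E, a lectin receptor of innate immunity, was at 0.22 (adjusted p = 0.16), with arrays at 0.07, 0.47 and 0.13 against -0.10, -0.09 and 0.19 in siNT, which overlapped. The prostaglandin synthase PTGES3 was at -0.54 and missed the fold minimum under housekeeping centring (-0.32) and without siMESH1+siATF4 replicate 2 (-0.495). HLF, a clock output factor, was at 0.57, or 0.41 once cross-hybridising probe sets were dropped, and BHLHE41 at 0.53, or 0.50 without siNT replicate 3.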
